A study of Mus musculus with 4 samples.

Results

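The step from thymocytes with intermediate T cell receptor β and high CD69 on their surface (group 2) to thymocytes with high T cell receptor β and high CD69 (group 3) was followed in wild-type mice, with 1 RNA library a side. Its members were the genes with 10 CPM (counts over the plain library total, before any TMM scaling) or more in either wild-type library: 8885 of the 35275 genes in the count table, and of the 12490 genes with 2 CPM or more in at least 1 library. Levels are given as CPM scaled with edgeR's TMM factors, and a difference as group 3 over group 2. A member was called higher or lower where the 2 libraries differed by 2-fold or more on the log2(CPM + 0.5) scale and the exact 95% interval of the ratio of counts excluded 1. That interval covers counting error only, and no p-value was drawn from this pair.

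The study crossed 2 genotypes with the 2 sorted groups, so there were 4 libraries, 1 in each group, from the thymus of untreated C57BL/6 mice aged 6 to 8 weeks. The wild-type (WT) libraries are labelled wild type, and the study's design gives their mice as Uba3F/F, carrying a floxed Uba3 gene. The other pair is labelled Uba3-/- (KO) and given in the design as Uba3ΔT; Uba3 is the catalytic part of the NEDD8-activating enzyme, and the driver of its deletion is not given in the sources used here. The number of mice behind a library is not given either, so the values describe these libraries and not the spread between mice. The cell type field of the labels disagrees with the sample titles on the sorted group of 1 WT and 1 KO library, and the titles were used.

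Thymocytes that carry both CD4 and CD8 are tested for a T cell receptor that recognises self peptide on MHC, and those that receive a survival signal raise CD69 and then the receptor itself, which is positive selection. In the stages after it they shut down receptor gene recombination, choose the CD4 or the CD8 lineage, gain CCR7 and enter the medulla, and later take on the genes of egress, of interferon response and of MHC class I that mark mature cells. Cells whose receptor binds self strongly are deleted or turned to regulatory and other agonist-selected lineages at the same stages.

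The libraries held between 8043077 and 10299863 counts. At 1 common depth of 8043077 counts, 19879 genes were detected in WT group 2 and 23325 in WT group 3, against 23610 and 20063 in groups 2 and 3 labelled KO. The pairs thus ran opposite ways in how many genes were detected. Among genes under 10 CPM in all 4 libraries, which are no members, 1665 were higher and 430 lower in the WT pair, while 320 were higher and 1859 lower in the pair labelled KO. The part this plays in the members' differences was not tested. Uba3, the targeted gene, stood at 43.2 and 43.7 CPM in WT groups 2 and 3 and 73.3 and 89.9 CPM in those labelled KO, so its counts over the whole gene were not lower in the libraries labelled KO. All 11 listed genes of the T lineage were members, with a summed level of 24147 and 23199 CPM in WT groups 2 and 3 and 26145 and 20234 CPM in those labelled KO.

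Most members differed little. The log2 ratio of the WT step had a median of -0.03 and a 5th to 95th percentile range of -0.56 to 0.61, and 7656 members (86.2%) lay within 0.5 of 0. Of the 8885 members, 116 were higher in group 3 (1.31%) and 49 were lower (0.551%). Past 3-fold, 17 were higher and 13 lower, and past 4-fold 5 and 9. Protein-coding genes made up 103 of the 116 and 31 of the 49.

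The 1750 members with a mean under 20 CPM in the WT pair held 67 of the 116 higher and 30 of the 49 lower members, while the 556 members at 300 CPM or more held 5 higher and 0 lower. A member with a low mean had to reach 10 CPM in 1 of the libraries, so the floor itself favours calls at low means, and nothing is read from these counts. By plain totals in the higher WT library, as the floor is set, the 5 called members just above it stood between 10.1 and 10.2 CPM, all higher, and the 5 called genes just under it between 9.61 and 9.95 CPM, of which 3 were higher and 2 lower.

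**Figure D1:**
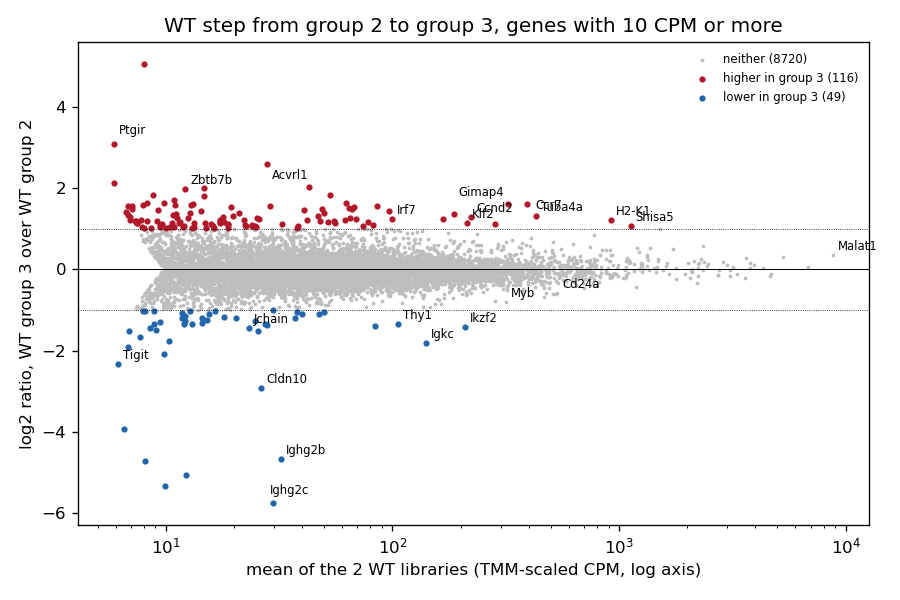
Log2 ratio of the WT step (group 3 over group 2, 1 library each) against the mean level of the pair in TMM-scaled CPM on a log axis, 1 point per member, with the 116 higher members in red, the 49 lower in blue and dotted lines at 2-fold. The cloud narrows from low to high levels, and Ccr7, Gimap4, H2-K1 and Shisa5 lie above 2-fold among well-counted genes, while the immunoglobulin genes, Cldn10 and Tigit reach furthest down.

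The pair labelled KO shares no library with the WT pair and shows the same step in other libraries. Members were set by WT levels alone, so genes that reach 10 CPM only in the libraries labelled KO are left out. In the pair labelled KO, 90 of the same members were higher (1.01%) and 70 lower (0.788%). Of the 116 genes higher in WT, 34 were higher there too, which is 29.3% of the WT list and 37.8% of the other, and 13 of the 49 lower genes were lower there too, which is 26.5% and 18.6%. By the interval alone, 24.2% of all members were above 1 and 29.4% below 1 in WT, and 30.4% above and 22.4% below in the pair labelled KO. Of the 116, 76 were above 1 in the pair labelled KO, 10 were below 1 and 30 included 1, and of the 49 lower genes 28 were below 1, 3 above and 18 included 1. By level, 31 of the 67 higher members under 20 CPM had an interval above 1 in the other pair, against 45 of the 49 from 20 CPM up. The interval widens as counts fall, and the share of all members at each level was not counted, so nothing is read from this contrast.

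The part of the step common to both genotypes was tested over all 12490 measured genes with edgeR's quasi-likelihood test, with genotype in the model, 1 residual degree of freedom and Benjamini-Hochberg adjustment at 0.05. By this test 276 genes rose (2.21%) and 143 fell (1.14%), of which 259 and 133 were members, and "rose" and "fell" are used here for these calls only. Of the 116 members higher in WT 72 rose, and of the 49 lower 30 fell, in a test that uses the WT pair again. With DESeq2 42 and 13 were called. Over all members and with sorted group alone in the model, 2 rose without the WT group 2 library, 29 without WT group 3, and 4 and 8 without groups 2 and 3 labelled KO. The test's error comes from the differences of the step between genotypes, largely pooled over genes, and a gene that differed in 1 pair only could pass. The histone gene Hist1h2ae had log2 ratios of -1.40 in WT and 0.01 in the pair labelled KO, with a standard error of 0.17. Ikzf2 had -1.43 in both pairs, with a standard error of 0.15. A gene's standard error and adjusted p thus do not measure how alike its 2 pairs were.

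**Figure D2:**
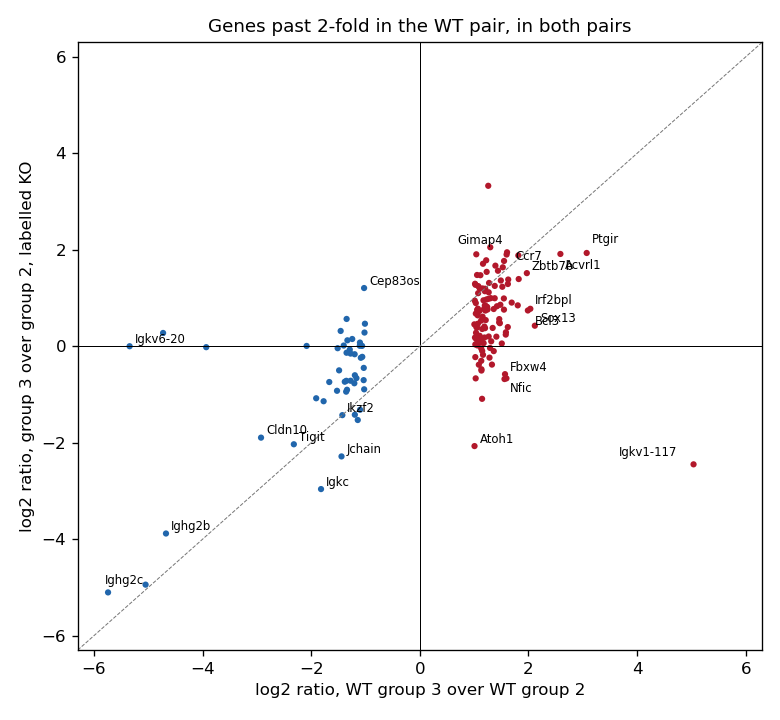
Log2 ratio of group 3 over group 2 in the WT pair (horizontal axis) and in the pair labelled KO (vertical axis) for the 165 genes past 2-fold in the WT pair, red where higher and blue where lower, with the dashed line where both would be equal. Most red points lie above 0 on the vertical axis, with a group near 0 and 3 genes at or under -1, and Cldn10, Tigit, Ikzf2, Jchain and the immunoglobulin constant genes lie below 0 on both axes.

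The best-counted called genes, those with 100 CPM or more in a WT library, numbered 17 higher and 4 lower, and this cut was added after the values were seen. All 17 rose and all 4 fell in the shared test, which uses the WT pair that picked them and is no separate support. In the pair labelled KO the interval lay on the same side for 16 of the 17 and 3 of the 4 (all members, 30.4% above 1 and 22.4% below). The exceptions were Lmnb1, which encodes lamin B1, and the histone gene Hist1h2ae. Lmnb1 stood at 105 and 269.8 CPM in WT groups 2 and 3 and 213 and 199 CPM in those labelled KO. Its WT group 2 library was the low one, and the other 3 did not differ by 2-fold.

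Several genes of this well-counted set are outside the named-gene rule and were picked after their values were seen. Shisa5, a p53- and interferon-responsive gene, stood at 732 and 1521 CPM in WT groups 2 and 3 and 1006 and 1697 CPM in those labelled KO. Tuba4a, an α-tubulin gene, stood at 247 and 612 CPM in WT groups 2 and 3 and 373 and 745 CPM in those labelled KO. Ccnd2, which encodes cyclin D2, stood at 130.0 and 315 CPM in WT groups 2 and 3 and 159 and 395 CPM in those labelled KO. In each genotype the group 3 library was above both group 2 libraries for these 3 genes. How many of all members have sorted groups that do not overlap was not counted, so here and below such an order is a description only. The WT ratios, and their 95% intervals, were 2.08 (2.02 to 2.14), 2.48 (2.36 to 2.60) and 2.42 (2.27 to 2.59). Inpp4b, a phosphoinositide phosphatase, went from 99.8 to 235 CPM in WT and from 88.3 to 258 CPM in the pair labelled KO. Samhd1, which hydrolyses deoxynucleotides and restricts retroviruses, went from 51.9 to 142 CPM and from 37.2 to 111 CPM, and Anxa6, an annexin, from 179 to 385 CPM and from 191 to 440.1 CPM. All 6 rose in the shared test, as did all 17 higher genes of the set they were picked from, so this is no separate support.

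Among genes of entry into the medulla and of late maturation, 3 of 23 and 2 of 16 members were higher (all members, 1.31%). Each list's counts, here and below, stand beside those of all 8885 members, of which 1.31% were higher and 0.551% lower. In the shared test 259 of the 8885 rose and 133 fell. Ccr7 (chr11:99144196-99155077, minus strand, mm10), the receptor that draws selected thymocytes to the medulla, stood at 195 and 592 CPM in WT groups 2 and 3 and 159.9 and 599 CPM in those labelled KO. Both group 3 libraries were alike and well above both group 2 libraries. The WT ratio was 3.03 (2.88 to 3.19), the ratio in the pair labelled KO 3.74 (3.53 to 3.97), and the shared log2 difference 1.75 ± 0.14 (SE; edgeR adjusted p = 1.58e-30). Ccr8, a chemokine receptor of maturing CD4 thymocytes and regulatory T cells, stood at 26.9 and 66.7 CPM in WT groups 2 and 3 and 12.2 and 52.3 CPM in those labelled KO. Again the groups did not overlap, and Ccr8 rose by 1.68 ± 0.20 (SE; edgeR adjusted p = 7.87e-14), where a gene that "rose by" a value is given its shared log2 difference throughout. Klf2, the transcription factor that drives the egress programme, stood at 133 and 292 CPM in WT groups 2 and 3 and 123 and 177 CPM in those labelled KO. Its WT group 3 library was the highest, the WT ratio was 2.19 (2.05 to 2.34) and the shared log2 difference 0.83 ± 0.15 (SE; edgeR adjusted p = 4.71e-06).

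Of the 25 listed genes of migration and egress 23 were members, with 3 higher, 0 lower and a median log2 ratio of 0.18 (all members, -0.03), and 7 rose and 0 fell in the shared test (5 called with DESeq2). S1pr1, the receptor by which mature thymocytes leave, stood at 33 and 57.3 CPM in WT groups 2 and 3 and 47.5 and 71.5 CPM in those labelled KO. It was under 2-fold in WT, at 1.74 (1.51 to 2.00), and rose by 0.69 ± 0.18 (SE; edgeR adjusted p = 0.00715), a call lost with DESeq2 (adjusted p = 0.202). Ccr9, the receptor of cortical thymocytes, stood at 1497 and 1425 CPM in WT groups 2 and 3 and 1514 and 1377 CPM in those labelled KO. Its WT ratio was 0.952 (0.929 to 0.975) and that of the other pair 0.909 (0.887 to 0.931). Ccr4, an early medullary homing receptor, went from 50.5 to 35.3 CPM in WT and from 51.1 to 52.4 CPM in the pair labelled KO.

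Of 19 listed genes of late maturation 16 were members, with 2 higher, 0 lower, a median log2 ratio of 0.36 in WT and 0.51 in the pair labelled KO, and 8 rose and 0 fell (6 with DESeq2). Il7r, the receptor chain for the survival cytokine IL-7, stood at 47 and 93.6 CPM in WT groups 2 and 3 and 29.6 and 76.2 CPM in those labelled KO. Both group 3 libraries were above both group 2 libraries, with a WT ratio of 1.99 (1.78 to 2.24), and Il7r rose by 1.18 ± 0.18 (SE; edgeR adjusted p = 8.05e-09). Slfn1, a Schlafen gene tied to quiescence, stood at 34.9 and 101 CPM in WT groups 2 and 3 and 61.1 and 144 CPM in those labelled KO, with a WT ratio of 2.89 (2.55 to 3.28). It rose by 1.38 ± 0.17 (SE; edgeR adjusted p = 4.77e-14).

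The Gimap GTPases, a family of lymphocyte survival proteins, were all 8 members, with log2 ratios from 0.02 to 1.61. Gimap4 (chr6:48684549-48692060, plus strand) stood at 159.8 and 487 CPM in WT groups 2 and 3 and 157 and 608 CPM in those labelled KO. Gimap3 (chr6:48764464-48770851, minus strand) stood at 43.1 and 127 CPM in WT groups 2 and 3 and 54.3 and 186 CPM in those labelled KO. Both had more CPM in each group 3 library than in either group 2 library, with WT ratios of 3.05 (2.88 to 3.23) and 2.95 (2.64 to 3.30). They rose by 1.78 ± 0.15 (SE; edgeR adjusted p = 6.38e-31) and 1.67 ± 0.16 (SE; edgeR adjusted p = 1.34e-21). Gimap7 went from 24.5 to 51.9 CPM in WT, a ratio of 2.12 (1.81 to 2.48), and rose too. The other 5 members of the family ran between 0.02 and 0.29 and did not pass the test. Within 250 kb of another higher member lay 15 of the 116 higher genes (12.9%), against 7.85% of the other members, and Gimap3, Gimap4 and Gimap7 were among the 15. Since the Gimap genes share sequence, reads may have been split between them.

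**Figure D3:**
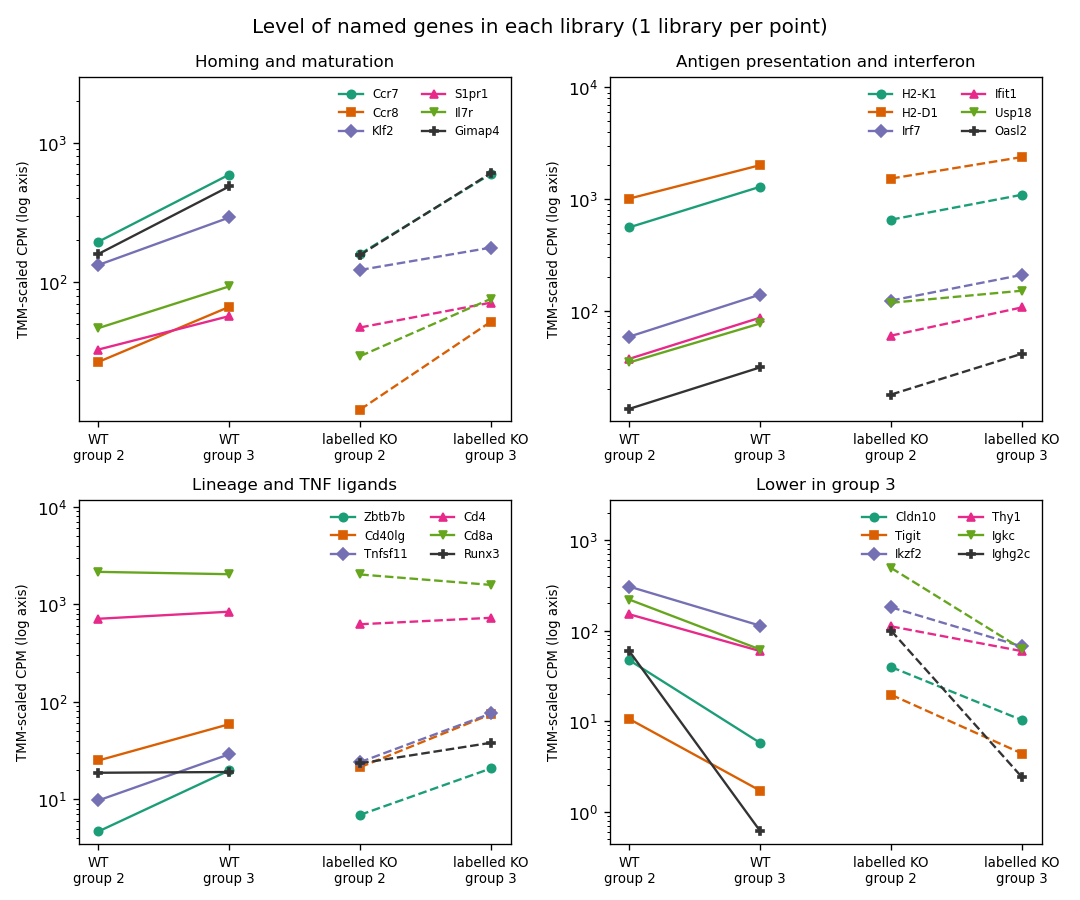
Level of 24 named genes in TMM-scaled CPM on a log axis in each of the 4 libraries, 1 library per point, with solid lines joining the WT pair and dashed lines the pair labelled KO. Ccr7 and Gimap4 run from under 200 CPM in group 2 to near 500 CPM or more in group 3 of each pair, Cd4 runs from 710.0 to 839 CPM in WT, and Ighg2c runs from at least 59.1 CPM to under 3 CPM.

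Most interferon-stimulated genes rose, 16 of 21 members (all members, 259 of 8885). Of 25 listed 21 were members; in the WT step all 21 had a log2 ratio above 0, from 0.14 to 1.25 with a median of 0.76, 20 had an interval above 1 (all members, 24.2%), and 6 were higher by the 2-fold rule (all members, 1.31%). In the pair labelled KO the median was 0.53 and 18 intervals lay above 1 (all members, 30.4%), and 16 of the 21 rose and 0 fell in the shared test (7 with DESeq2). Their summed level, over all 25 listed genes, was 891 and 1564 CPM in WT groups 2 and 3 and 1543 and 2308 CPM in those labelled KO. The group 2 library labelled KO was thus close to WT group 3, and the WT group 2 library was the lowest of the 4.

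Irf7, the transcription factor that amplifies type I interferon responses, stood at 58.7 and 139.8 CPM in WT groups 2 and 3 and 123 and 209.6 CPM in those labelled KO. The WT ratio was 2.38 (2.16 to 2.63), and Irf7 rose (edgeR adjusted p = 2.52e-08). The groups did not overlap, with group 2 labelled KO just under WT group 3. Ifit1, an antiviral protein that binds foreign RNA ends, stood at 37.2 and 86.8 CPM in WT groups 2 and 3 and 59.9 and 107 CPM in those labelled KO. Oasl2, a 2'-5' oligoadenylate synthetase-like protein, stood at 13.2 and 31.2 CPM in WT groups 2 and 3 and 17.8 and 41.3 CPM in those labelled KO. Both had group 3 above group 2 in each genotype and rose, by 1.03 ± 0.17 (SE; edgeR adjusted p = 2.42e-07) and 1.22 ± 0.22 (SE; edgeR adjusted p = 6.20e-06).

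Usp18, which removes ISG15 and damps interferon receptor signalling, stood at 34.5 and 77 CPM in WT groups 2 and 3 and 118 and 151 CPM in those labelled KO, so the group 2 library labelled KO exceeded WT group 3. The WT ratio was 2.23 (1.96 to 2.55) against 1.28 (1.18 to 1.39) in the other pair. Usp18 rose by 0.74 ± 0.16 (SE; edgeR adjusted p = 4.76e-04), a call lost with DESeq2 (adjusted p = 0.0915). Without the WT group 2 library its shared log2 difference was -0.046. Zbp1, a sensor of Z-form nucleic acids, went from 47.9 to 101 CPM in WT and from 73.8 to 102 CPM in the other pair, and Ifi27l2a, a small interferon-induced membrane protein, from 24.8 to 50.9 CPM and from 49.5 to 120.3 CPM. Both rose, Zbp1 not with DESeq2 (adjusted p = 0.0537). Ifngr2, a chain of the interferon-γ receptor, stood at 65.4 and 131 CPM in WT groups 2 and 3 and 86.9 and 205 CPM in those labelled KO. It was on the edge of the rule with a WT ratio of 2.00 (1.82 to 2.21), and rose by 1.12 ± 0.16 (SE; edgeR adjusted p = 3.08e-10).

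The promoters of some of these genes share a short element, and the stretches around it are printed because they stand beside genes called higher. RefSeq promoter windows of 300 bases (250 before to 50 after a gene's start, build GRCm38.p6) were found by symbol for 81 of the 116 higher members (107 windows) and 24 of the 49 lower. Under 80% of either set had a window, so a comparison of the sets' motif shares is void. The core of the interferon-stimulated response element was searched as GAAA and GAAA with 2 bases between, on both strands. This search was added after the values were seen. The core was in 9 of the 107 windows of higher members (8.41%) and in 1 of the 31 of lower members. It was in 3.30% of the 8987 windows of all members and in 3.44% of all 32851 windows of the table. With the coverage above, nothing is read from these shares. The 9 windows belong to 9 genes; 6 of them, picked after the match was seen, are printed, and Gpr18, Shisa5 and Slfn5 hold 1 core each. The cores are in capitals and the flanks run up to 25 bases either side: Ifit1 at chr19:34640760-34640838 on the plus strand; Ddx60 at chr8:61928009-61928102 on the plus strand; Ctss at chr3:95526740-95526799 on the plus strand; Ifi206 at chr1:173491324-173491383 on the minus strand; Ifi208 at chr1:173673582-173673641 on the plus strand; Ifi214 at chr1:173536002-173536061 on the minus strand.
Ifit1: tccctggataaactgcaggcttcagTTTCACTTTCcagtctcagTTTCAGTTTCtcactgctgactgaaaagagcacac
Ddx60: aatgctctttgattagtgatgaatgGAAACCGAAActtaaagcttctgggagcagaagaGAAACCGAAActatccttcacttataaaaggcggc
Ctss: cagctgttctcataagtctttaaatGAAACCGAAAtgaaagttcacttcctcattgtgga
Ifi206: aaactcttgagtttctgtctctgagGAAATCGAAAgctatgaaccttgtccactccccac
Ifi208: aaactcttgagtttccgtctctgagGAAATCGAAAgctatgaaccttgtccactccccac
Ifi214: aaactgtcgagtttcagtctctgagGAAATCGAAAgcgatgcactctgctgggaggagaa
The stretch of Ifit1 reads the core on the opposite strand, and Ifit1 and Ddx60 each hold 2 cores. Ifi206, Ifi208 and Ifi214, near-copies of HIN-200 DNA sensors on chromosome 1, carry the same core in closely similar flanks. Their WT log2 ratios were 1.24, 1.38 and 1.62, and reads may be shared among them. Ddx60, an antiviral helicase, had 1.23 and Ctss, the lysosomal protease cathepsin S, 1.19. Apart from Ifit1 and Ifi214 these genes are outside the named-gene rule and were picked after their values were seen. The letters are a match only, and not a measured site. The other 8 motifs, searched on both strands, were chosen earlier than this one. Their shares are given in the windows of higher members, then of all members, then of the whole table, and with the coverage above nothing is read from them. The E2F site TTTNGCGC was in 0.935%, 2.67% and 1.38%, and the CCAAT box in 31.8%, 38.2% and 37.4%. The TATA box TATAAA was in 13.1%, 6.61% and 13.6%, and the KLF and SP site CACCC in 61.7%, 62.0% and 57.5%. The NF-κB site (GGG and CC with 5 bases between) was in 62.6%, 67.4% and 50.8%, and the CRE core TGACG in 19.6%, 34.0% and 20.8%. The RUNX site TGTGGT was in 21.5%, 12.1% and 16.8%, and the E-box CAGCTG in 21.5%, 14.2% and 16.3%. The KLF and SP and the NF-κB letters can overlap in a GC-rich stretch.

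Of the MHC class I genes 7 of 15 members rose (all members, 259 of 8885). Of 17 listed 15 were members, with a median log2 ratio of 0.52 in WT and 0.38 in the pair labelled KO, 13 WT intervals above 1 (all members, 24.2%), 1 higher member by the 2-fold rule, and 7 that rose and 0 that fell (5 with DESeq2). H2-K1, a classical class I heavy chain, stood at 559 and 1290.0 CPM in WT groups 2 and 3 and 655 and 1093 CPM in those labelled KO. H2-D1, the other classical heavy chain of this strain, stood at 1011 and 2014 CPM in WT groups 2 and 3 and 1527 and 2379.5 CPM in those labelled KO. For H2-K1 both group 3 libraries exceeded both group 2 libraries, with a WT ratio of 2.31 (2.24 to 2.38) and a rise of 0.97 ± 0.13 (SE; edgeR adjusted p = 6.78e-11). H2-D1 had a WT ratio of 1.99 (1.94 to 2.04) and rose by 0.82 ± 0.12 (SE; edgeR adjusted p = 1.20e-08). Nlrc5, the transactivator of class I genes, stood at 27.6 and 54.7 CPM in WT groups 2 and 3 and 23.4 and 44.1 CPM in those labelled KO. It had no overlap either and rose by 0.95 ± 0.20 (SE; edgeR adjusted p = 2.14e-04). H2-T22, a non-classical class I gene, went from 99.1 to 165 CPM in WT, and rose by 0.61 ± 0.15 (SE; edgeR adjusted p = 0.00383), but not with DESeq2 (adjusted p = 0.0578). Class I genes are close relatives, and their counts are less certain for that.

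Ligands of the TNF family, by which CD4 thymocytes signal to medullary epithelium, had few members. Of 14 listed only 5 were members. All 5 had an interval above 1 in both pairs (all members, 24.2% in WT and 30.4% in the pair labelled KO). By the rule 2 were higher (all members, 1.31%), and 3 rose (2 with DESeq2). Tnfsf11, which encodes RANKL, stood at 9.72 and 28.9 CPM in WT groups 2 and 3 and 24 and 75.7 CPM in those labelled KO. Cd40lg, the CD40 ligand, stood at 25 and 58.9 CPM in WT groups 2 and 3 and 21.3 and 74.5 CPM in those labelled KO. Neither gene overlapped between groups. Tnfsf11 started from different levels in the pairs and had like ratios, 2.98 (2.35 to 3.80) in WT and 3.15 (2.70 to 3.69) in the other. Cd40lg and Tnfsf11 rose by 1.52 ± 0.19 (SE; edgeR adjusted p = 2.08e-12) and 1.62 ± 0.21 (SE; edgeR adjusted p = 9.73e-12). Lta, lymphotoxin α, was on the edge of the rule, from 14.8 to 29.6 CPM in WT, and rose by 0.90 ± 0.23 (SE; edgeR adjusted p = 0.0052) but not with DESeq2 (adjusted p = 0.324).

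Among lineage genes, that of ThPOK stood out. Zbtb7b (chr3:89377644-89394776, minus strand), which encodes the factor that commits cells to the CD4 lineage, stood at 4.67 and 19.7 CPM in WT groups 2 and 3 and 6.91 and 20.7 CPM in those labelled KO. Both group 3 libraries were well above both group 2 libraries. The WT ratio was 4.23 (3.05 to 5.95), and Zbtb7b rose by 1.82 ± 0.29 (SE; edgeR adjusted p = 5.12e-08). Of 10 CD4 lineage genes, all members, 2 were higher (Zbtb7b and Cd40lg), 0 lower, the median log2 ratio was 0.13, and 3 rose and 1 fell. Cd4 itself stood at 710.0 and 839 CPM in WT groups 2 and 3 and 624 and 726 CPM in those labelled KO, and its shared difference of 0.23 ± 0.13 (SE; edgeR adjusted p = 0.599) did not pass. Icos, a costimulatory receptor, rose by 0.63 ± 0.16 (SE; edgeR adjusted p = 0.00542), but not with DESeq2 (adjusted p = 0.119), from 66.3 to 108 CPM in WT.

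On the CD8 side, 6 of 12 listed genes were members, with 0 higher, 0 lower and a median log2 ratio of 0.04. Cd8a stood at 2150.0 and 2034 CPM in WT groups 2 and 3 and 2021 and 1579.5 CPM in those labelled KO. Runx3, the factor of the CD8 lineage, stood at 18.7 and 19 CPM in WT groups 2 and 3 and 23.3 and 37.9 CPM in those labelled KO. Neither passed the shared test; Runx3 was level in WT, at 1.02 (0.819 to 1.26), and 1.62 (1.37 to 1.94) in the pair labelled KO. Cd8b1, the β chain of CD8, went from 3851 to 3319.7 CPM in WT and from 3681 to 2410.0 CPM in the other pair. It fell by 0.41 ± 0.12 on the log2 scale (SE; edgeR adjusted p = 0.0152), a call lost with DESeq2 (adjusted p = 0.164). In bulk libraries a change in the share of CD4 and CD8 cells and a change in RNA per cell cannot be told apart, and the same holds for every gene here.

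Of the genes of immature double-positive cells 4 of 18 members fell (all members, 133 of 8885). Of 19 listed 18 were members, 0 passed 2-fold, 15 had an interval below 1 in WT (all members, 29.4%) and 16 in the pair labelled KO (22.4%), and the medians were -0.25 and -0.40. In the shared test 4 fell and 0 rose (1 called with DESeq2). Rag1, a subunit of the recombinase that assembles receptor genes, stood at 322 and 254 CPM in WT groups 2 and 3 and 227 and 153 CPM in those labelled KO. Rag2, its partner, stood at 172 and 120.1 CPM in WT groups 2 and 3 and 88.5 and 79.8 CPM in those labelled KO. Each pair had the lower value in group 3, and neither gene passed the shared test (edgeR adjusted p = 0.0536 and 0.359). Cd24a, the heat-stable antigen lost by mature thymocytes, stood at 643 and 425 CPM in WT groups 2 and 3 and 508 and 324 CPM in those labelled KO. It fell by about the same factor in both pairs, and its shared log2 difference was -0.62 ± 0.14 (SE; edgeR adjusted p = 6.03e-04).

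Stage transcription factors split. All 30 listed were members, 2 were higher (Zbtb7b and Klf2), 0 lower, 5 rose and 5 fell (7 called with DESeq2), and the median was 0.02. Myb, a factor of immature thymocytes that also acts early in the CD4 lineage, stood at 405 and 230.4 CPM in WT groups 2 and 3 and 325 and 226 CPM in those labelled KO. Bcl6, a repressor, stood at 60.9 and 33.8 CPM in WT groups 2 and 3 and 46.7 and 28.5 CPM in those labelled KO. In both genes each group 3 library was below each group 2 library, with WT ratios of 0.569 (0.539 to 0.601) and 0.556 (0.481 to 0.641). Both fell, with shared log2 differences of -0.67 ± 0.14 (SE; edgeR adjusted p = 3.19e-04) and -0.78 ± 0.19 (SE; edgeR adjusted p = 0.00316), Bcl6 not with DESeq2 (adjusted p = 0.158). Satb1, a chromatin organiser and one of the most abundant members, went from 4716 to 5851 CPM in WT and from 3934 to 4263 CPM in the other pair, and Tcf7, which encodes TCF1, from 4296 to 4364 CPM and from 4225 to 3629 CPM; neither passed the test.

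The agonist-selected and regulatory set went both ways. Of 16 listed 14 were members, 2 higher and 2 lower, and 4 rose and 3 fell (6 called with DESeq2). Ikzf2 (chr1:69531214-69687245, minus strand), which encodes Helios, a factor of strongly self-reactive and regulatory thymocytes, stood at 305 and 113 CPM in WT groups 2 and 3 and 181 and 66.8 CPM in those labelled KO. Both group 3 libraries were below both group 2 libraries, and the ratios were near equal, 0.371 (0.344 to 0.399) in WT and 0.370 (0.337 to 0.406) in the other pair. Ikzf2 fell, with a shared log2 difference of -1.43 ± 0.15 (SE; edgeR adjusted p = 9.82e-18). Tigit, an inhibitory receptor, stood at 10.6 and 1.72 CPM in WT groups 2 and 3 and 19.6 and 4.41 CPM in those labelled KO, and fell, with a shared log2 difference of -2.34 ± 0.36 (SE; edgeR adjusted p = 3.01e-08). Pdcd1, which encodes PD-1, stood at 67.4 and 39.7 CPM in WT groups 2 and 3 and 78.7 and 23.7 CPM in those labelled KO. Its WT ratio was 0.590 (0.516 to 0.674) and the ratio in the other pair 0.301 (0.258 to 0.351). Pdcd1 fell, with a shared log2 difference of -1.24 ± 0.19 (SE; edgeR adjusted p = 8.05e-09). On the other side Tnfrsf4, which encodes OX40, a costimulatory receptor of regulatory precursors, stood at 30.2 and 94.3 CPM in WT groups 2 and 3 and 15 and 39.8 CPM in those labelled KO. Tnfrsf4 rose by 1.54 ± 0.20 (SE; edgeR adjusted p = 1.96e-12). Ikzf4, which encodes Eos, a partner of FOXP3, went from 4.67 to 13.7 CPM in WT, a ratio of 2.94 (2.09 to 4.20), and from 4.53 to 6.93 CPM in the other pair, and did not pass (edgeR adjusted p = 0.102).

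Genes of the T cell receptor signal came next. Of 33 genes of the receptor complex and its proximal kinases and adaptors 32 were members, 0 passed 2-fold, the median was 0.02, and 1 rose and 1 fell. The gene that rose was Fyn, a Src family kinase, from 325 to 482 CPM in WT and from 451 to 703 CPM in the other pair, with 0.61 ± 0.14 (SE; edgeR adjusted p = 8.86e-04). The gene that fell was Cd5, a negative regulator whose level follows signal strength. Cd5 stood at 618 and 404 CPM in WT groups 2 and 3 and 617 and 389 CPM in those labelled KO, with a shared log2 difference of -0.64 ± 0.14 (SE; edgeR adjusted p = 3.28e-04). Of 25 genes induced by the receptor 21 were members, with 1 higher (Cd40lg), 0 lower, a median of 0.09, and 3 that rose and 1 that fell. Cd69, a gating marker of both sorted groups, stood at 640.0 and 526 CPM in WT groups 2 and 3 and 620.1 and 663 CPM in those labelled KO. Its WT ratio was 0.822 (0.791 to 0.854) and that of the other pair 1.07 (1.03 to 1.11). Tox2, a factor induced with exhaustion and agonist signals, went from 24 to 13.4 CPM in WT, and did not pass (edgeR adjusted p = 0.206).

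The NF-kB list had 15 members of 16, with 1 higher, 0 lower, a median of 0.05, and 1 that rose and 1 that fell, none of them called with DESeq2. Bcl3, a nuclear IκB protein that acts with p50, stood at 5.62 and 23.8 CPM in WT groups 2 and 3 and 7.02 and 12.1 CPM in those labelled KO. It was highest in WT group 3 and rose by 1.44 ± 0.30 (SE; edgeR adjusted p = 1.31e-04). Nfkb1, which encodes p50 and its precursor, stood at 67.2 and 36.4 CPM in WT groups 2 and 3 and 54.8 and 41.5 CPM in those labelled KO. It was lower in both group 3 libraries, with a shared log2 difference of -0.64 ± 0.18 (SE; edgeR adjusted p = 0.0197). Their DESeq2 adjusted p-values were 0.178 and 0.415. Among 14 costimulatory and inhibitory receptors that were members of 18 listed, 0 were higher and 1 was lower (Tigit), the median was -0.17, and 2 rose and 2 fell.

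Of 18 BCL2 family genes 10 were members, with 0 past 2-fold and a median of 0.07. Bcl2, the survival factor of mature thymocytes, was the 1 that rose, at 187 and 282 CPM in WT groups 2 and 3 and 177 and 293 CPM in those labelled KO. Its shared log2 difference was 0.66 ± 0.15 (SE; edgeR adjusted p = 5.42e-04). Bcl2l11, which encodes the death protein BIM, went from 232 to 182 CPM in WT and from 309.9 to 230.1 CPM in the other pair, and did not pass (edgeR adjusted p = 0.154). Of 27 cytokine receptor and STAT genes 23 were members, 0 passed 2-fold, the median was 0.12, and 5 rose and 0 fell. Ifnar1, a chain of the type I interferon receptor, was among the 5, from 75.3 to 126 CPM in WT, with 0.62 ± 0.16 (SE; edgeR adjusted p = 0.00477) and a DESeq2 adjusted p of 0.0903.

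None of the listed genes of mitosis, replication, cholesterol synthesis and glycolysis passed 2-fold. Of 26 mitosis genes, all members, 18 had an interval below 1 in WT (all members, 29.4%) and 13 in the pair labelled KO (22.4%), the medians were -0.21 and -0.13, and 0 passed the shared test. Mki67, the proliferation antigen, stood at 214 and 150.2 CPM in WT groups 2 and 3 and 136 and 107 CPM in those labelled KO, with an edgeR adjusted p of 0.102. For 29 members of 30 replication and E2F genes the median was -0.10, for 18 cholesterol synthesis genes -0.10 and for 16 members of 18 glycolysis genes 0.10. In the first and second of these 0 genes passed the shared test, and in glycolysis 2 rose: Pkm, a pyruvate kinase, by 0.52 ± 0.13 (SE; edgeR adjusted p = 0.00306), and Eno1, an enolase, by 0.50 ± 0.12 (SE; edgeR adjusted p = 0.00265). Histone gene Hist1h2ae was lower in WT, from 121 to 45.6 CPM, and went from 55.6 to 56.2 CPM in the other pair. It was high in WT group 2 alone, and its call in the shared test, -0.70 ± 0.17 (SE; edgeR adjusted p = 0.00332), was lost with DESeq2 (adjusted p = 1).

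Cytosolic ribosomal protein genes had the lowest median of the 24 lists, -0.27 over 44 members of 45, with 38 intervals below 1 in WT (all members, 29.4%). In the pair labelled KO the median was -0.08, 23 intervals lay below 1 (22.4%) and 14 above (30.4%), and 0 of 44 passed the shared test. Rpl37 stood at 69 and 50.8 CPM in WT groups 2 and 3 and 54.5 and 90.1 CPM in those labelled KO, so its direction differed between the pairs. These genes have many processed copies, and multiply placed reads may be lost from their counts. The 11 members of 16 immediate early and heat shock genes had a median of 0.23, and 3 rose. Among them Junb, an AP-1 subunit, stood at 559 and 995 CPM in WT groups 2 and 3 and 1284 and 1924 CPM in those labelled KO. Its shared log2 difference was 0.71 ± 0.13 (SE; edgeR adjusted p = 5.12e-06). The 7 members of 11 Notch genes had a median of 0.42 in WT and -0.38 in the other pair, and 0 passed the shared test. Notch1 itself went from 33.3 to 44.8 CPM in WT and from 51 to 30.5 CPM in the other. In the 5 lists where no gene passed edgeR, DESeq2 called 0 too, and the genes with an unadjusted edgeR p under 0.05 were 4 of mitosis, 3 of replication, 1 of cholesterol synthesis, 4 of ribosomal proteins and 2 of Notch.

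**Figure D4:**
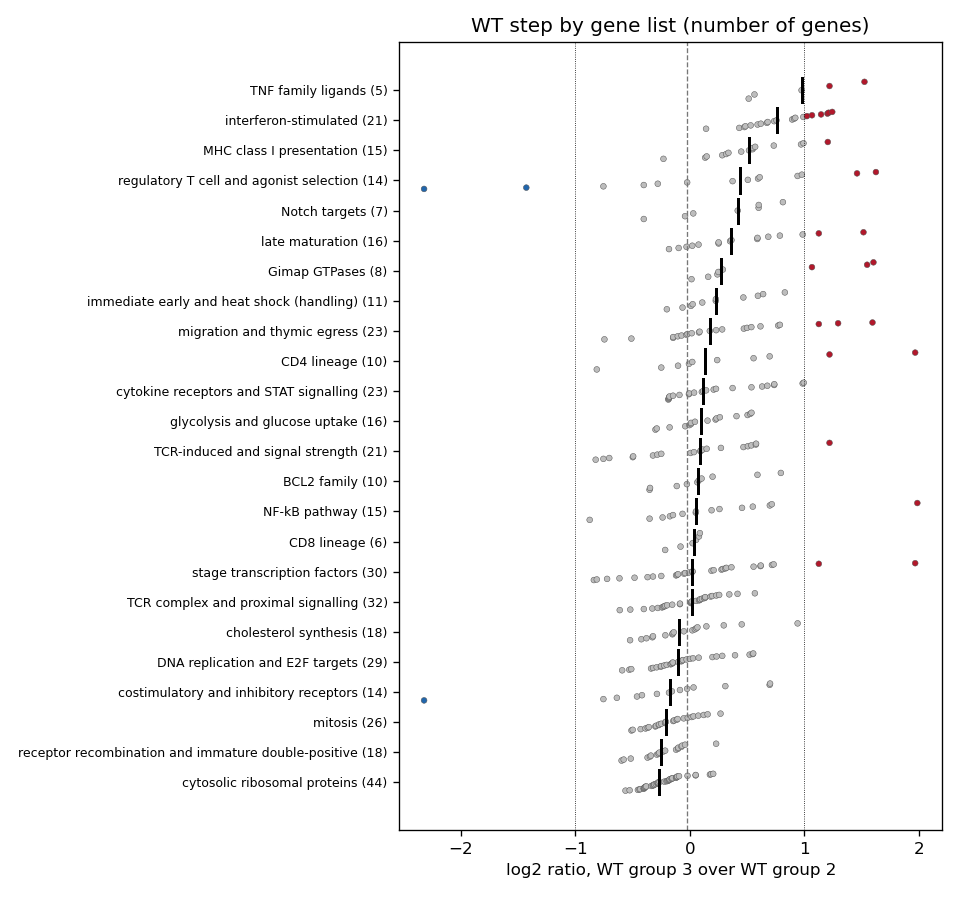
Log2 ratio of the WT step for the members of 24 gene lists, 1 point per gene, ordered by the list's median (black bar), with the median of all members dashed, 2-fold dotted, and genes past the 2-fold rule in red or blue. The TNF ligands, interferon-stimulated genes and MHC class I genes have the highest medians, and the immature double-positive genes and cytosolic ribosomal proteins the lowest.

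Beyond the lists, the member with the highest ratio among those the rule names was Ptgir (chr7:16906490-16910905, plus strand), the prostacyclin receptor. It stood at 0.857 and 10.9 CPM in WT groups 2 and 3 and 1.47 and 7.04 CPM in those labelled KO, on 9, 89, 13 and 67 counts. The group 3 libraries were both well above the group 2 libraries. The WT ratio was 12.7 (6.41 to 28.7), and Ptgir rose by 2.93 ± 0.58 (SE; edgeR adjusted p = 6.52e-05). Acvrl1 (chr15:101128522-101145336, plus strand), the type I receptor ALK1 of the TGF-β superfamily, was better counted, at 7.62 and 48.3 CPM in WT groups 2 and 3 and 12.3 and 47.9 CPM in those labelled KO. It too had no overlap, with a WT ratio of 6.34 (4.97 to 8.17) and a rise of 2.30 ± 0.23 (SE; edgeR adjusted p = 6.49e-21). Ptgir and Acvrl1 passed the 10 CPM floor through WT group 3 alone. The rule named these genes, and those of the next paragraphs, by their WT ratio. The shared test uses the WT pair again, so a pass in it is no separate support.

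Irf2bpl, a nuclear regulator of transcription, stood at 16.5 and 69 CPM in WT groups 2 and 3 and 53 and 91.2 CPM in those labelled KO. Irf2bpl rose by 1.39 ± 0.18 (SE; edgeR adjusted p = 1.83e-11). Its WT group 2 library was the low one. Tesc, which encodes the calcium-binding tescalcin, stood at 23.1 and 82.7 CPM in WT groups 2 and 3 and 18.8 and 50.2 CPM in those labelled KO. Tesc rose by 1.64 ± 0.20 (SE; edgeR adjusted p = 5.33e-14). Adgrg3, an adhesion G protein-coupled receptor, went from 3.62 to 14 CPM in WT and from 3.96 to 16 CPM in the other pair, and rose. Lfng, the Fringe enzyme that modifies Notch, went from 6.29 to 23.2 CPM and from 13 to 23.8 CPM, and Amigo2, a cell adhesion protein, from 4.86 to 16.8 CPM and from 4.87 to 9.56 CPM. Both rose by edgeR and not with DESeq2 (adjusted p = 0.0788 and 0.341).

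Not all of the largest WT differences were seen in the other pair. Sox13, Fbxw4, Nfic and Unc93b1 were picked for their WT ratio and passed the 10 CPM floor through WT group 3 alone. Such a pick favours a smaller ratio in the other pair, so no loss of the step is read from these genes. The pairs also ran opposite ways in how many genes were detected, and the part this plays was not tested. Sox13, a factor of γδ T cells, stood at 1.91 and 9.93 CPM in WT groups 2 and 3 and 3.62 and 5.04 CPM in those labelled KO. It had a WT ratio of 5.21 (3.17 to 8.98) and 1.39 (0.871 to 2.25) in the other pair, and did not pass the shared test (edgeR adjusted p = 0.172). The 12 listed genes of innate-like and γδ T cells that were in the table summed to 121 and 112 CPM in WT groups 2 and 3 and 163 and 121 CPM in those labelled KO. Sox13 was the 1 of its 3 members that was higher. Fbxw4, an F-box protein, stood at 6.29 and 19.6 CPM in WT groups 2 and 3 and 18.9 and 12.5 CPM in those labelled KO. Nfic, a nuclear factor I protein, stood at 3.33 and 10.8 CPM in WT groups 2 and 3 and 8.04 and 4.83 CPM in those labelled KO. Both were higher in WT and had ratios below 1 in the pair labelled KO, with log2 ratios of 1.57 and -0.58 for Fbxw4 and 1.56 and -0.68 for Nfic. Unc93b1, which carries Toll-like receptors to endosomes, went from 3.72 to 12.1 CPM in WT and from 13.1 to 16.2 CPM, and did not pass (edgeR adjusted p = 0.0599).

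Of the lower members that the rule names, Cldn10 (chr14:118787908-118875489, plus strand), a tight junction claudin, had the lowest ratio. It stood at 47.1 and 5.76 CPM in WT groups 2 and 3 and 39.6 and 10.3 CPM in those labelled KO. Both group 2 libraries were several times above both group 3 libraries, with a WT ratio of 0.122 (0.0888 to 0.165) and a shared log2 difference of -2.45 ± 0.24 (SE; edgeR adjusted p = 1.91e-21). The listed genes of thymic epithelium summed to 43.4 and 34.2 CPM in WT groups 2 and 3 and 39 and 38.2 CPM in those labelled KO. Of this Epcam alone held 31.3 CPM and 26.9 CPM in the WT pair, while Cldn3 was at 0 throughout. Their part in the level of Cldn10 was not tested.

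Thy1, the pan-thymocyte surface glycoprotein, stood at 151 and 59.4 CPM in WT groups 2 and 3 and 111 and 59.3 CPM in those labelled KO. Both group 3 libraries were lower, with a WT ratio of 0.393 (0.354 to 0.435) and a shared log2 difference of -1.13 ± 0.16 (SE; edgeR adjusted p = 1.03e-09). Hexim1, an inhibitor of the transcription elongation factor P-TEFb, stood at 38 and 12.9 CPM in WT groups 2 and 3 and 35.1 and 18.3 CPM in those labelled KO, and fell, with -1.24 ± 0.22 (SE; edgeR adjusted p = 4.38e-06). Zfp938, a zinc finger protein, had the lowest ratio of the named genes that did not fall in the shared test: it went from 16.2 to 3.43 CPM in WT and from 8.16 to 8.19 CPM in the other pair (edgeR adjusted p = 0.0674). Cpeb4, Fbrs, Ppwd1 and Arrb1 were also lower in WT, at log2 ratios of -1.25, -1.28, -1.33 and -1.51, with 0.15, -0.15, 0.12 and -0.04 in the other pair, and did not pass.

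Immunoglobulin genes, products of B and plasma cells, filled the lowest ranks; the rule leaves them out, and those named here except Jchain were picked after their values were seen. Igkc, the κ constant gene, stood at 219.5 and 61.8 CPM in WT groups 2 and 3 and 490.2 and 62.5 CPM in those labelled KO. Ighg2c, a γ constant gene, stood at 59.1 and 0.613 CPM in WT groups 2 and 3 and 99.8 and 2.42 CPM in those labelled KO. Ighg2b, another, stood at 62.4 and 1.96 CPM in WT groups 2 and 3 and 39.4 and 2.21 CPM in those labelled KO. Jchain, the joining chain of secreted IgA and IgM, stood at 34.2 and 12.3 CPM in WT groups 2 and 3 and 57.2 and 11.3 CPM in those labelled KO. In all 4 genes both group 2 libraries were above both group 3 libraries, with WT ratios of 0.282 (0.255 to 0.310), 0.0104 (0.00336 to 0.0244), 0.0314 (0.0179 to 0.0515) and 0.359 (0.284 to 0.449), and all 4 fell in the shared test.

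Among 48 T cell receptor segments that were members 1 was higher and 2 were lower, with a median log2 ratio of -0.24, and none of the 6 receptor constant genes passed 2-fold. Single immunoglobulin variable segments differed by library. Igkv6-20 was counted 208 times in WT group 2 and 0 times in the other 3 libraries. In WT group 3 it was at least 53.9-fold lower, taking 3 counts there as the limit that 0 allows. Igkv1-117 had 0 counts in WT group 2, 130 in WT group 3, and 45 and 5 in groups 2 and 3 labelled KO, at least 55.8-fold higher in WT by the same limit. The B cell list, which holds no light chain or γ constant gene, did not move alike in WT. Its summed level was 1241 and 1169.9 CPM in WT groups 2 and 3 and 1344 and 981 CPM in those labelled KO. In WT 1 of its 3 members had an interval above 1 and 2 below, while in the pair labelled KO all 3 were below 1 (all members, 22.4%). The median log2 ratios were -0.17 in WT and -0.39 in the pair labelled KO. The WT log2 ratios of the 3 members ran from -0.25 to 0.48. Ms4a1, which encodes CD20, was under the 10 CPM floor, at 5.72 CPM in WT group 2 and 4.42 CPM in WT group 3. Nothing is read from that gene alone. Markers of macrophages, dendritic cells and neutrophils summed to 324 and 315 CPM in WT groups 2 and 3 and 439.6 and 432 CPM in those labelled KO. C1qc, a complement subunit, was the 1 of the 5 members among them that was higher, from 3.53 to 10.7 CPM in WT and from 8.16 to 11.6 CPM in the other pair. Those of erythroid cells summed to 361 and 402 CPM in WT groups 2 and 3 and 538 and 395 CPM in those labelled KO. Their part in the immunoglobulin levels was not tested. Receptor and immunoglobulin genes were 2 of the 116 higher and 9 of the 49 lower members; without all such genes 114 were higher and 40 lower.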

How the data were processed

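Total RNA of sorted thymocytes was sequenced, 1 library per group (WT and KO, sorted groups 2 and 3), per the labels' protocols. The authors deposited a table of raw counts by Ensembl gene, and RPKM for each library. The alignment used TopHat2 2.0.12 and the build mm10, according to the submitters' processing notes. Which program did the counting, with what annotation and strand setting, is not given in the sources used here, so overlapping and antisense genes cannot be told apart, and close gene copies may share reads. The deposited RPKM were used as an alternative only. Of the 35275 gene IDs 34490 matched GENCODE release M21; the 785 unmatched held 0.119% to 0.128% of a library's counts. In the table, 7465 genes had 0 counts throughout.

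Counts were scaled by TMM (edgeR 4.0.16, R 4.3.3). Log2 ratios used a pseudocount of 0.5 CPM, and intervals of the ratio of counts were exact conditional binomial (Clopper-Pearson, 95%, counting error only). The shared step was fitted with edgeR's quasi-likelihood test on genes with 2 CPM in at least 1 library; the standard error is the log2 difference over the root of F. The common dispersion was 0.0288. The fit was also run on counts simulated with the same step in both genotypes and no genotype effect. That run cannot show how the test behaves where the step differs between genotypes. DESeq2 1.42.0 and limma 3.58.1 (voom) were alternatives. Members, lists and rules were chosen with earlier results of these data known. Named genes were the 20 highest and 20 lowest called members, those called in each list (or its 4 largest where fewer than 4), the 15 most abundant, those opposite in both pairs and some set stage genes. Left out were sex-linked and predicted genes, pseudogenes, small RNAs and the segments of receptor and immunoglobulin genes. The promoter search for the interferon-stimulated response element was added after 8 other motifs had been fixed and the values seen. Nothing in the sources says that libraries of a sorted group were separate mice, so p-values measure only the spread between these libraries, largely pooled over genes.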

Additional observations from a re-analysis of the deposited data

Results flagged for a closer look

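In 4 of the 8885 members the step was past 2-fold in opposite directions in the 2 genotypes. The difference was not tested, with 1 library in each group. At 1 common depth, 19879 and 23325 genes were detected in WT groups 2 and 3, and 23610 and 20063 in those labelled KO. The part this plays in the 4 genes was not tested. Atoh1, a basic helix-loop-helix factor of neural and secretory lineages, had a log2 ratio of 1.01 in the WT pair and -2.07 in the pair labelled KO, on 89, 143, 92 and 20 counts in WT group 2, WT group 3 and groups 2 and 3 labelled KO. The predicted gene Gm15298 had 1.15 and -1.09, and Cep83os, a long non-coding RNA annotated at a bidirectional promoter, had -1.03 and 1.21. The immunoglobulin segment Igkv1-117 had fitted log2 ratios of 5.04 and -2.45; the first is against 0 counts and depends on the pseudocount.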

How the results depend on the processing

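With 1 library in a group, depth bounds the counting error only. The number of genes past 2-fold in the WT pair followed the floor. It was 559 higher and 224 lower at 2 CPM, 1799 and 483 with no floor, 49 and 18 at 30 CPM, and 17 and 4 at 100 CPM, the last added after seeing the data. It was 484 and 380 at 1.5-fold and 17 and 13 at 3-fold. The pair labelled KO had 14 higher and 10 lower at 100 CPM. With DESeq2 size factors, plain totals, TMM within WT, pseudocounts of 2 and 0 CPM and the deposited RPKM, the counts ran from 87 to 140 higher and 42 to 61 lower, and no list's WT median changed sign in any of the scalings and pseudocounts run.

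In the shared step 259 members rose and 133 fell. Sorted group alone gave 9 and 5, filterByExpr 164 and 55, no floor 189 and 70, DESeq2 98 and 37, and limma-voom 239 and 112. With sorted group alone, leaving out each library in turn gave between 2 and 29 that rose and between 5 and 9 that fell. The shared log2 difference of Usp18 ran from -0.046 to 1.73 as libraries were left out. These fits had fewer libraries and no genotype term; the cause of the lower counts with DESeq2, filterByExpr and no floor was not tested. No paired analysis was possible by replicate number, because the labels carry none; with genotype in its model the shared test already compares the sorted groups within each genotype. Promoter windows with the response element core were the other value recomputed, at 1.5-fold, and their share moved by less than its interval.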
